A study of Talpa occidentalis with 24 samples.

Results

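The chromatin of the testis of the Iberian mole, Talpa occidentalis, was set beside that of the mouse testis, using 1 map of chromatin states per species. Each map divides the genome into segments made of bins of 200 bp and gives every segment 1 of 7 states. The names are promoter and bivalent promoter, active and poised enhancer, Polycomb repression, undefined, and gap. In the mole, the 17 scaffolds of at least 1 Mb other than scaffolds 15 and 18 were used. In the mouse, chromosomes 1 to 19 were used. These sequences hold 603463 mole segments and 3622863 mouse segments, together 4226326 of the 9587082 segments in the 5 maps of the series. They cover 1920 Mb of the mole map (91.5% of its bases) and 2472 Mb of the mouse map (93.1%). The 2 genomes were not aligned, so what was compared is the make-up of each map and not the same locus in both animals.

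The series profiled histone marks by chromatin immunoprecipitation with sequencing (ChIP-seq) in gonads of both species, to look for regulatory elements that they share or that belong to 1 of them. In this mole the female gonad is an ovotestis, which has an ovarian and a testicular part. Mole testes came from wild-type animals at postnatal day 7, with 8 libraries: 4 marks (H3K4me3, H3K4me1, H3K27ac and H3K27me3) in 2 replicates each. The mouse gonads came from embryos at day 13.5. The number of mouse libraries, and the genotype and strain of the mice, are not stated in the labels, and the mouse maps belong to no labelled sample. Gonads of both species were fixed in 1% formaldehyde. The protocol describes shearing whole fixed gonads, so each map averages over all cell types of the organ. No expression values were used here, and the labelled tissue could not be checked against marker genes.

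Histone marks divide the genome by function. H3K4me3 sits at gene starts, H3K4me1 at enhancers, H3K27ac at promoters and enhancers in use, and H3K27me3 is laid down by Polycomb repressive complexes over silenced genes. Promoters that carry H3K4me3 together with H3K27me3 are called bivalent and are known from developmental regulators in stem and germ cells, while enhancers with H3K4me1 but without H3K27ac are called poised or primed. In the developing gonad, germ cells and supporting cells hold many developmental genes in such a bivalent form. The state names below are those of the authors, and how each state relates to the marks, or what the gap state stands for, is not stated in the labels.

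Each testis has 1 map, so the differences have no replicates behind them, no test was run and no p-value is given. Values for single scaffolds or chromosomes show the spread along a genome and are not replicates. The differences within a species, between the mole testis and the testicular or ovarian part of the ovotestis and between mouse testis and mouse ovary, are given as a yardstick. Species, stage, assembly and the making of the maps differ together between the testes and cannot be told apart. Scaffold 19, the shortest mole scaffold used (3.78 Mb), stood apart from the other 16, and ranges over scaffolds are given with and without it.

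In the mole testis a much smaller part of the genome was in the Polycomb and active enhancer states than in the mouse testis. Of the bases outside the gap state, 8.43% were in the Polycomb state in the mole and 28.4% in the mouse, a ratio of mole to mouse of 0.297. The active enhancer state took 5.89% in the mole and 11.4% in the mouse, a ratio of 0.516. The promoter state took 0.616% and 0.859%, a ratio of 0.717. In the opposite direction, the undefined state made up 61.0% of the mole map and 39.2% of the mouse map. The bivalent promoter state was also the larger in the mole, at 0.768% against 0.420%, a ratio of 1.83. The poised enhancer state was the closest of the 6 between the species, with 23.3% and 19.7% (ratio 1.18).

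**Figure D1:**
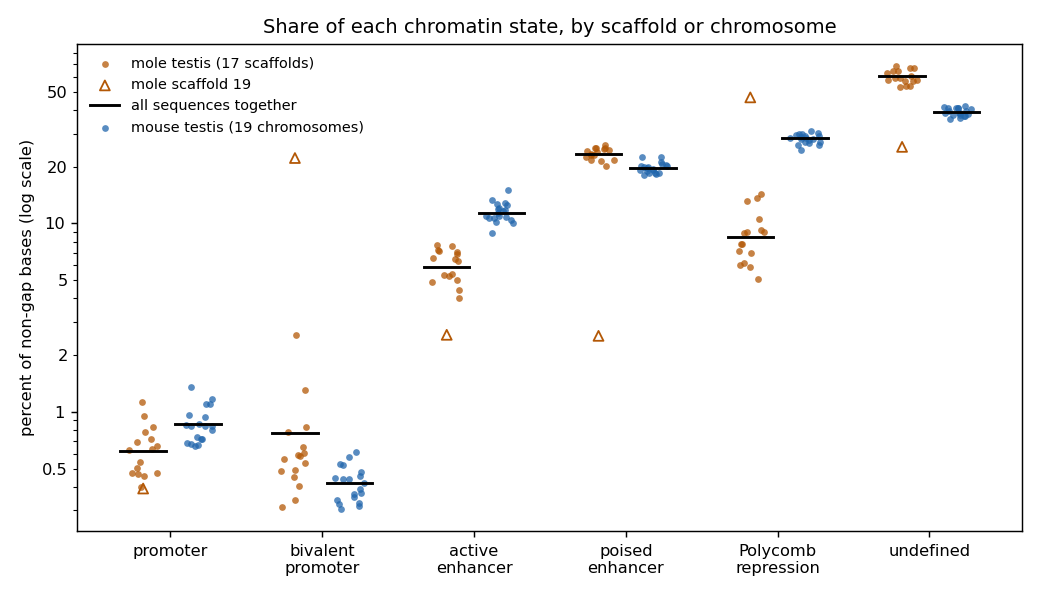
Percent of non-gap bases in each of 6 states (vertical axis, log scale) for each mole scaffold (orange) and mouse chromosome (blue); triangles mark mole scaffold 19 and black bars the value over all sequences together. Apart from scaffold 19, every mole scaffold lies below every mouse chromosome for the active enhancer and Polycomb states, while the promoter and bivalent clouds overlap.

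Along the genome, the active enhancer difference was larger than the spread between sequences. The lowest mole scaffold had 2.56% (scaffold 19), the median scaffold 6.31% and the highest 7.64% (scaffold 17), and the mouse chromosomes ran from 8.92% (chromosome 3) through 11.3% to 15.04% (chromosome 11). No mole scaffold reached the lowest mouse chromosome. For the Polycomb state the mole scaffolds ran from 5.10% through a median of 8.90% to 46.7% on scaffold 19, and the mouse chromosomes from 24.6% to 30.9%. Without scaffold 19 the highest mole value was 14.3% (scaffold 17), and the ranges did not overlap. The promoter state overlapped, with 0.392% to 1.13% in the mole and 0.657% to 1.36% in the mouse. In each species the sequence with most promoter state also had most active enhancer state, scaffold 17 and chromosome 11.

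Bivalent chromatin was concentrated in fewer places in the mole than in the mouse. Mouse chromosomes held between 0.304% and 0.614%. Mole scaffolds held between 0.312% and 22.3% (scaffold 19), and without scaffold 19 the highest was 2.56% on scaffold 2. The 20 windows of 1 Mb richest in bivalent bases held 32.9% of all bivalent bases in the mole and 8.60% in the mouse. Of these 20 mole windows, 9 lay on scaffold 2, and the richest lay on scaffold 19, where 52.2% of non-gap bases were bivalent and 33.6% were in the Polycomb state. Scaffold 2 alone held 26.1% of the mole's bivalent bases, and with scaffolds 2 and 19 left out the mole share was 0.576%, 1.37 times that of the mouse. The mouse window with most bivalent bases lay at the start of the mapped part of chromosome 11 and was 9.004% bivalent.

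The other gonads give a scale for these ratios. The Polycomb share of the mole ovotestis was 5.12% (testicular part) and 5.29% (ovarian part), and that of the mouse ovary was 29.4%, so the mole testis was 1.65 times the testicular part while the mouse testis and ovary differed by a ratio of 0.965. Against these, the mole to mouse ratio for the testis, 0.297, lay farther from 1. The active enhancer share was 3.96% in the ovarian part and 14.2% in the mouse ovary, again lower in the mole. The bivalent share did not keep its order: 0.700% in the ovarian part lay below 0.781% in the mouse ovary, and the mouse testis and ovary alone differed by a ratio of 0.537. The higher bivalent share of the mole was therefore seen between the testes and not between the ovarian tissues, and the difference between these pairs was not tested.

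The mouse testis was cut into far shorter segments. Outside the gap state there were 275 segments per Mb in the mole testis and 1597 in the mouse testis, 5.81 times as many. The mean segment was 3640 bp long in the mole and 626 bp in the mouse, and the medians were 1800 and 400 bp. Within a species the gonads lay close together, with a ratio of 1.00 between mole testis and testicular part, 0.918 between mole testis and ovarian part, and 1.03 between mouse testis and ovary. Mole scaffolds other than scaffold 19 ranged from 237 to 347 segments per Mb, scaffold 19 had 580, and mouse chromosomes ranged from 1531 to 1646.

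At the 200 bp bins of the maps, the difference in length was largest for the Polycomb and undefined states. Polycomb segments averaged 3493 bp in the mole and 513 bp in the mouse, and undefined segments 5734 and 638 bp. Poised enhancer segments averaged 2473 and 670 bp, active enhancers 1684 and 974 bp, and bivalent promoters 1270 and 669 bp. For these 5 states no mole scaffold, scaffold 19 included, overlapped the mouse chromosomes. Promoter segments were the exception. They averaged 690 bp in the mole and 752 bp in the mouse, the median was 600 bp in both, and scaffolds and chromosomes overlapped. That small promoter difference turned around when gap segments of up to 2 kb were read across, to 983 bp in the mole and 788 bp in the mouse. Between the ovarian tissues the order turned for bivalent promoters and for active enhancers. Bivalent segments averaged 1173 bp in the ovarian part and 1907 bp in the mouse ovary, a ratio of 0.615 where the testes had 1.90, and the mean of active enhancers in the ovarian part was 0.931 times that of the mouse ovary.

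**Figure D2:**
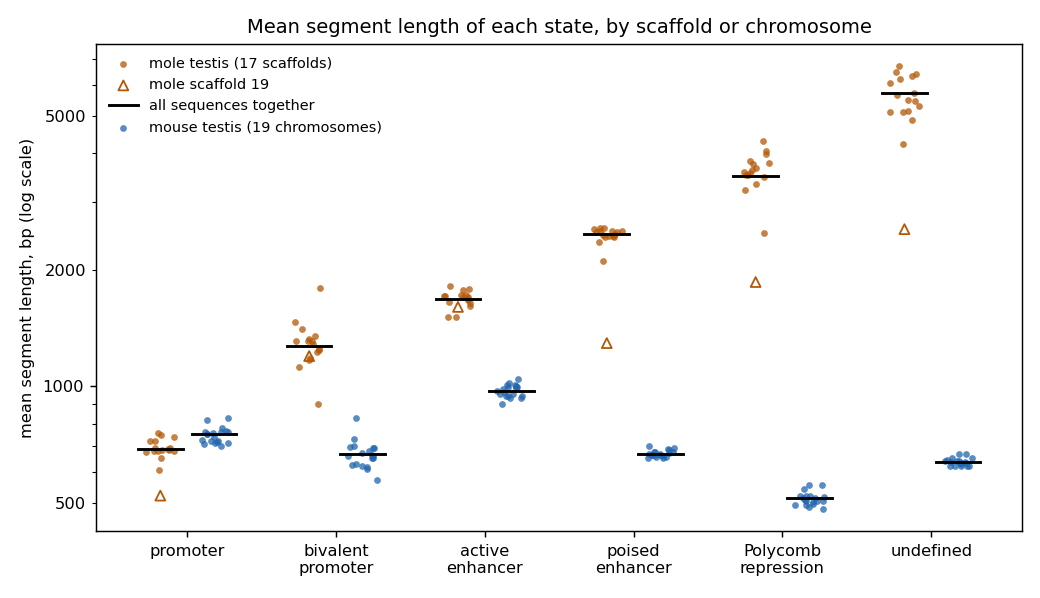
Mean segment length in bp (vertical axis, log scale) of each state for each mole scaffold (orange) and mouse chromosome (blue), with mole scaffold 19 as a triangle and the value over all sequences as a black bar. The gap between the species widens from the promoter state (690 and 752 bp) to the Polycomb state (3493 and 513 bp) and the undefined state (5734 and 638 bp).

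Single bins were common in the mouse. A length of 200 bp, the shortest possible, was found for 44.4% of mouse Polycomb segments and 9.26% of those of the mole. The same shares were 31.7% and 3.70% for poised enhancers, 22.7% and 6.14% for active enhancers, 31.3% and 17.8% for bivalent promoters and 28.6% and 18.7% for promoters, naming the mouse first. Broad Polycomb domains showed the reverse. Segments of at least 5 kb held 58.9% of Polycomb bases in the mole and 1.43% in the mouse. For the bivalent state these shares were 25.6% and 4.50%. The mole testis had 2720 Polycomb segments of at least 10 kb and the mouse testis 87.

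Most borders of the mouse map were switches between Polycomb and undefined chromatin. Such switches made up 59.7% of all borders between non-gap states in the mouse and 8.50% in the mole, where switches between poised enhancer and undefined were the most frequent, at 52.5%. Joining the Polycomb and undefined states brought the segments per Mb to 256 in the mole and 663 in the mouse, a ratio of 0.387 in place of 0.172. At bins of 1 kb, each given its most frequent state, there were 205 and 508 segments per Mb, and at bins of 5 kb 68.9 and 104. The length differences narrowed too. Polycomb segments averaged 4769 bp in the mole and 1829 bp in the mouse at 1 kb, and 10144 and 8799 bp at 5 kb. Undefined segments averaged 8050 and 2188 bp at 1 kb, and 22484 and 11592 bp at 5 kb. The Polycomb share of the mouse fell with larger bins, from 28.4% at 200 bp to 26.6% at 1 kb and 23.9% at 5 kb. In the mole it was 8.43%, 8.46% and 8.67%, so it stayed below that of the mouse. The length order of 1 state also depended on the bins. Mouse active enhancers were slightly the longer at 1 kb, with a mean of 2227 bp against 2184 bp in the mole. At 5 kb the means were 9201 bp in the mouse and 6938 bp in the mole.

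Short segments of the mouse were found again in the other gonad of the species at lower shares than longer ones. Of the bases in mouse testis Polycomb segments of 200 bp, 34.0% were in the Polycomb state in the mouse ovary, where that state covered 29.4% of non-gap bases. The share was 62.0% for segments of 2 to 4.8 kb and 53.0% for those of at least 5 kb. In the mole, 52.2% of the bases in such 200 bp segments were Polycomb in the testicular part of the ovotestis, where the state covered 5.12%. Mole Polycomb segments showed no such order by length, since the share was 36.9% for 1 to 1.8 kb, 39.7% for 2 to 4.8 kb and 51.7% for at least 5 kb. Over all lengths the shares were 46.9% in the mole and 45.8% in the mouse. For promoters the share was lower for short segments in both species, with 20.9% of mouse bases in 200 bp segments and 73.8% in segments of 1 to 1.8 kb found again, against 63.6% and 87.1% in the mole. With the ovarian part as the other mole gonad, closer in kind to the mouse ovary, the Polycomb shares were 47.7% for 200 bp segments and 41.8% over all lengths.

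The gap state bears on every statement about mole promoters. It covered 5.76% of the mole bases used and 10.1% of the mouse bases, but was placed differently. In the mouse, each chromosome opens with 2.9998 to 3.08 Mb of gap, and gap segments averaged 3439 bp. In the mole they averaged 1039 bp with a median of 600 bp, and 89.7% were no longer than 2 kb. Of the mole bases within 200 bp of a promoter segment, 38.9% were gap, falling to 4.10% at 1 to 2 kb. In the mouse the same shares were 7.15% and 1.08%. A gap segment adjoined 1 side of 70.3% of mole promoter segments and both sides of 6.31%, and in the mouse 13.6% and 0.224%. The other mole gonads had gap at 40.7% and 42.9% of promoter borders, near the 41.5% of the mole testis, and mouse ovary and testis at 8.81% and 7.04%. In the mole 4828 gap segments lay between a promoter segment on each side. Reading across gap segments of up to 2 kb lowered the number of mole promoter segments from 16134 to 11329, and of mouse promoter segments from 25404 to 24231. The promoter density was 8.92 and 11.4 per Mb before and 6.26 and 10.9 per Mb after. What sequence the gap bins hold was not tested.

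Promoters of the mole testis were nearly always bordered by active enhancer chromatin where the neighbour was not gap. The active enhancer state stood at 90.4% of such promoter borders in the mole and at 62.7% in the mouse. The mouse promoters met poised enhancer chromatin at 17.6% and bivalent chromatin at 16.6% of borders, against 4.97% and 2.93% in the mole. With short gaps read across, active enhancers stood at 79.6% of mole and 61.3% of mouse promoter borders. With gap counted as a neighbour, the order turned, to 52.9% in the mole and 58.3% in the mouse. By sequence, the share ran from 83.4% to 94.0% on mole scaffolds other than scaffold 19, which had 39.3%, and from 58.7% to 65.5% on mouse chromosomes. With gap borders left out, the other gonads had 88.8% (testicular part), 82.7% (ovarian part) and 83.03% (mouse ovary). The mouse testis was thus the lowest of the 5, and the ovarian tissues of the species were close. With short gaps read across, the other gonads had 77.2% (testicular part), 70.8% (ovarian part) and 81.2% (mouse ovary). The mouse testis was again the lowest, but the ovarian tissues were no longer close and the mouse ovary lay above every mole tissue. Of promoters with non-gap states on each side, 81.8% in the mole (of 3772) and 47.7% in the mouse (of 21884) had active enhancer chromatin on both sides. With short gaps read across these were 65.5% of 11140 and 44.1% of 24145.

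Bivalent promoters lay inside Polycomb chromatin in the mole testis and beside promoters and poised enhancers in the mouse testis. Polycomb chromatin stood at 89.98% of bivalent borders in the mole testis and at 25.04% in the mouse testis. In the mouse the neighbour was a poised enhancer at 45.2% and a promoter at 29.0% of borders, against 1.70% and 2.98% in the mole. A bivalent segment had Polycomb chromatin on both sides in 81.7% of mole cases and 14.3% of mouse cases, and 77.4% and 14.3% with short gaps read across. The most frequent setting in the mouse was a promoter on 1 side and a poised enhancer on the other, at 38.6%. Accordingly, 48.4% of mouse bivalent segments adjoined a promoter segment, with a median distance of 400 bp, while 4.94% did so in the mole, where the median distance was 52400 bp. These contrasts are larger between the testes than between the ovarian tissues. In the mouse ovary 15.8% of bivalent segments adjoined a promoter, with a median distance of 23600 bp, and in the ovarian part of the mole ovotestis 4.21% did, with a median of 36800 bp. Polycomb chromatin stood at 53.2% of bivalent borders in the mouse ovary, and 33.8% of its bivalent segments had it on both sides. The testicular and ovarian parts of the mole ovotestis had it at 91.5% and 87.5% of bivalent borders.

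**Figure D3:**
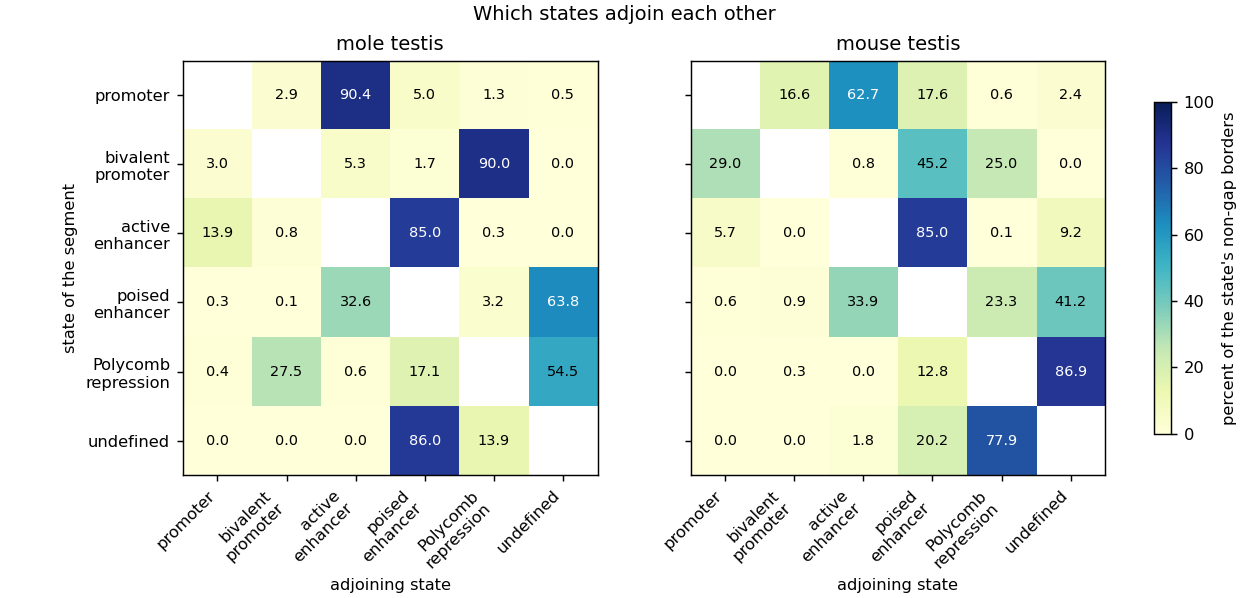
Percent of the borders of each state (rows) that adjoin each other state (columns), gap borders left out, in mole testis and mouse testis; color gives the same value as the printed number. Bivalent promoters adjoin Polycomb chromatin at 89.98% of borders in the mole and 25.04% in the mouse, and active enhancers adjoin poised enhancers at 85.0% in both.

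Active enhancers had the same main neighbour in both species. The poised enhancer state stood at 85.0% of their borders in both testes, and 71.4% of mole and 73.2% of mouse active segments lay between poised segments. The other borders differed. In the mole 13.9% were with promoters, and 1 border over all scaffolds used, 0.000812%, was with undefined chromatin. In the mouse 5.69% were with promoters and 47740 borders, 9.17%, were with undefined chromatin. The other mole tissues were alike in this: the testicular part had 1 such border and the ovarian part 0, and the mouse ovary had 75189. When short gaps were read across, 853 active enhancer borders in the mole testis (0.677%) met undefined chromatin.

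The neighbours of poised enhancers and of undefined chromatin differed as well. Poised enhancers bordered undefined chromatin at 63.8% of borders in the mole and 41.2% in the mouse, and active enhancers at 32.6% and 33.9%. They met Polycomb chromatin at 3.24% of borders in the mole and at 23.3% in the mouse. Undefined chromatin of the mole was bordered by poised enhancers at 86.0% of borders and lay between a poised segment on each side in 78.7% of cases. In the mouse it was bordered by Polycomb chromatin at 77.9%, and 5.76% of its segments lay between poised segments. Polycomb chromatin adjoined undefined chromatin at 54.5% of borders in the mole and 86.9% in the mouse, and bivalent promoters at 27.5% and 0.284%.

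Among non-gap bases around promoters, the active state fell off more steeply with distance in the mole. It held 90.4% of non-gap bases in the bin next to a promoter segment, 44.4% at 600 to 1000 bp, 13.0% at 2 to 5 kb and 8.15% at 10 to 20 kb. In the mouse it began lower, at 63.4%, was level with the mole at 600 to 1000 bp (46.2%), and stayed higher beyond, with 27.4% at 2 to 5 kb and 18.3% at 10 to 20 kb. Beyond 500 kb it was near 1% in each, 0.991% in the mole and 1.22% in the mouse. These shares leave out the gap state, which took 38.9% of mole and 7.15% of mouse bases within 200 bp of a promoter segment. Counted over all bases, the active state in that bin was lower in the mole, so its higher start there rests on leaving out gap. Polycomb chromatin increased with distance from promoters in the mouse, from 0.600% in the adjoining bin to 17.7% at 5 to 10 kb and 41.5% beyond 500 kb. In the mole it reached 9.52% at 2 to 5 kb, stayed between 8.13% and 9.75% out to 500 kb, and was 5.14% beyond. Undefined chromatin took the far distances in the mole, with 84.0% of non-gap bases beyond 500 kb against 49.0% in the mouse.

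**Figure D4:**
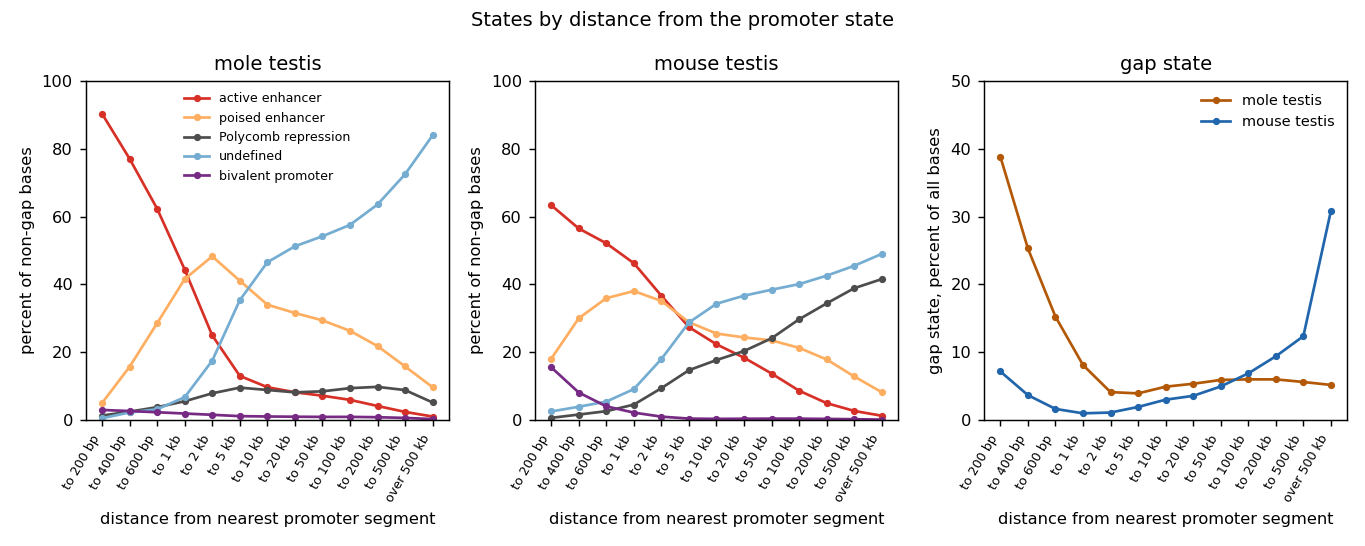
Percent of non-gap bases in 5 states (left and middle, vertical axis) and percent of all bases in the gap state (right) by class of distance from the nearest promoter segment (horizontal axis, classes not evenly spaced). In the mole the active enhancer state falls from 90.4% to 13.0% by 2 to 5 kb and the gap state is at 38.9% beside promoters; in the mouse the Polycomb state rises to 41.5% beyond 500 kb.

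Around bivalent promoters the picture was the opposite. In the mole Polycomb chromatin held 89.7% of non-gap bases in the adjoining bin, 52.7% at 2 to 5 kb, 20.1% at 10 to 20 kb and 3.79% beyond 500 kb. In the mouse it stood at 25.3% in the adjoining bin and 26.4% at 2 to 5 kb, and was highest, 38.6%, beyond 500 kb. Polycomb chromatin was thus denser near bivalent segments in the mole testis, and not in the mouse testis. The mouse ovary differed from the mouse testis in this, with 54.1% in the adjoining bin, 45.4% at 2 to 5 kb and 34.7% beyond 500 kb.

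Active enhancers lay at similar median distances from promoters but were distributed differently. The median distance from an active enhancer segment to the nearest promoter segment, edge to edge, was 23200 bp in the mole (63296 segments) and 19200 bp in the mouse (260381 segments). Mole scaffolds without scaffold 19 ranged from 5400 to 39200 bp and mouse chromosomes from 13600 to 25600 bp, so the spread along the genome was larger than the difference. A larger share of mole enhancers adjoined a promoter, 26.3% against 10.6%, and a larger share lay beyond 100 kb, 22.0% against 15.3%. The adjoining share depends on how many enhancers there are per promoter. In number, adjoining enhancers were close to promoter segments in both testes, with 16665 beside 16134 in the mole and 27533 beside 25404 in the mouse. Within 10 kb the shares were close, 39.1% and 36.9%. Among enhancers that adjoined no promoter the medians were 47600 bp in the mole and 24400 bp in the mouse. Measured against the spacing of promoters, 112 kb of non-gap bases per promoter segment in the mole and 87.5 kb in the mouse, the order turned: the median was 0.207 of that spacing in the mole and 0.219 in the mouse. With promoters counted across short gaps these were 0.145 and 0.209. Poised enhancers lay farther out, at medians of 57200 and 39600 bp.

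**Figure D5:**
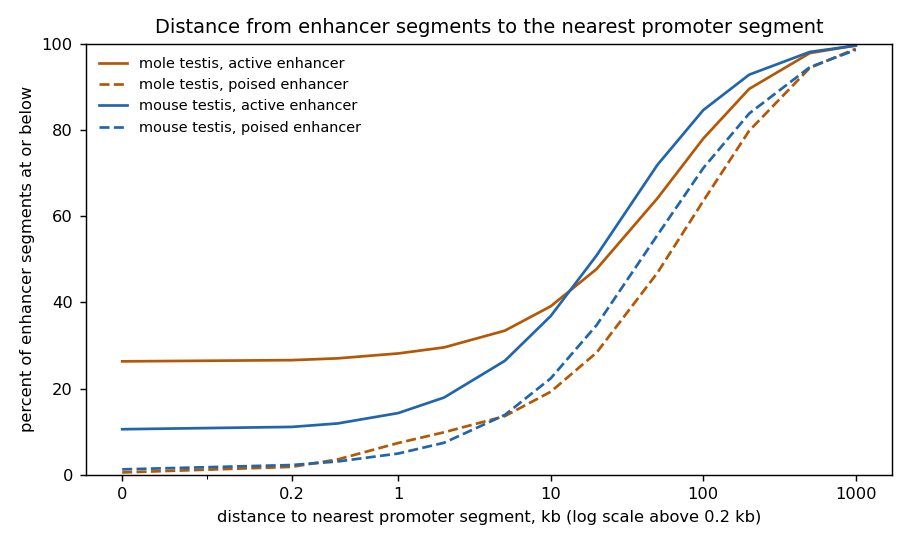
Percent of active enhancer (solid) and poised enhancer (dashed) segments at or below each distance from the nearest promoter segment (horizontal axis in kb, log scale above 0.2 kb) in mole testis (orange) and mouse testis (blue). The mole active enhancer curve starts at 26.3% of adjoining segments and the mouse curve at 10.6%, and they cross between 10 and 50 kb.

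The other gonads placed these distances as follows. Medians were 26200 bp in the testicular part, 16000 bp in the ovarian part and 18400 bp in the mouse ovary, so the mole tissues among themselves differed by more than the testes of the species did. The share of adjoining enhancers was 26.1% and 29.6% in the parts of the ovotestis and 15.5% in the mouse ovary. All 3 mole tissues lay above both mouse tissues.

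Enhancers that adjoined a promoter were shorter than the others in the mole and longer in the mouse. Mean lengths were 1269 bp for adjoining and 1832 bp for other active enhancers in the mole testis, and 1206 and 947 bp in the mouse testis. The ratio of the means, adjoining over other, was 0.692 in the mole testis and for the parts of the ovotestis 0.672 (testicular) and 0.734 (ovarian). It was 1.27 in the mouse testis and 1.53 in the mouse ovary. There were 3.92 active enhancer segments per promoter segment in the mole and 10.2 in the mouse. Between neighbouring promoters the median number of active enhancers was 2 and 5. Of the intervals between promoters, 32.4% in the mole and 12.1% in the mouse held none. In the mole, 33.2% of the intervals were at most 2 kb long, and the short gap segments between promoters are among them. A single gap segment, which holds no enhancer, filled 4828 of 16117 mole and 1180 of 25385 mouse intervals. Such intervals were most of the mole intervals without an enhancer, so the higher mole share rests on counting them. With gap segments of up to 2 kb read across, the mole had 63061 active enhancer and 11329 promoter segments. The mouse then had 260369 and 24231.

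When promoters, bivalent promoters and enhancers that touch were joined into marked stretches, the species came close in total and differed in grain. Such stretches covered 30.6% of non-gap bases in the mole and 32.4% in the mouse. There were 75.4 per Mb with a mean of 4059 bp in the mole, and 204 per Mb with a mean of 1590 bp in the mouse. A promoter was part of 11.1% of stretches in the mole and 4.42% in the mouse. Stretches with a promoter had medians of 4200 bp in the mole and 5400 bp in the mouse, and those without had medians of 2200 and 600 bp. Stretches with poised enhancer chromatin alone made up 61.0% and 68.6%. Of the active enhancer bases, 33.9% in the mole and 32.5% in the mouse lay in stretches that contained a promoter. Stretches ended at gap segments, which stood at 41.5% of promoter borders in the mole and 7.04% in the mouse. The stretches were not rebuilt with short gaps read across, so the effect of gap on their number, length and promoter shares was not tested.

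At the scale of 1 Mb, active and Polycomb chromatin varied in opposite directions in the mouse and with little relation in the mole. Over 2352 mouse windows the shares of the active enhancer and Polycomb states had a Pearson correlation of -0.855 (Spearman -0.923), and over 1889 mole windows 0.0285 (Spearman 0.226). Promoter and Polycomb shares gave -0.561 in the mouse and 0.114 in the mole, and bivalent and Polycomb shares gave -0.159 and 0.439. Active and poised enhancers went together in each, at 0.716 and 0.783. Polycomb and undefined shares were correlated at 0.499 in the mouse and at -0.517 in the mole. These coefficients describe windows of 1 map, whose shares add up to 100% and whose neighbours are not independent. The grain varied more along the mole genome: the SD of segments per Mb over windows was 0.398 of the mean in the mole and 0.0878 in the mouse.

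The extremes of each map were named by length. Mole positions are on the talOcc4 scaffolds. Mouse positions are taken to be on mm9, the build named in the submitters' processing notes, and no gene annotation of either build was used. The longest Polycomb segment of the mole testis lay on scaffold 17 from 2789001 to 2870400 (81400 bp), and the second longest, 71600 bp, began less than 100 kb farther on, at 2968401. In the 100 kb on each side of the longest, 86.4% of non-gap bases were also Polycomb. The third, of 68600 bp, lay on scaffold 7 from 108017201 to 108085800. In the mouse the longest Polycomb segments measured 22600 bp (chr1:63296201-63318800), 21800 bp (chr11:98174801-98196600) and 20400 bp (chr2:164987801-165008200), each shorter than the 3 longest of the mole.

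Bivalent extremes were of another kind. The 3 longest of the mole measured 24800 bp (scaffold 19, from 3429401 to 3454200), 21800 bp (scaffold 7, from 119309401) and 21400 bp (scaffold 2, from 33737801). Their surroundings within 100 kb were 59.4%, 67.2% and 21.1% Polycomb. In the mouse the longest was 43800 bp (chr11:3049401-3093200), longer than any in the mole, followed by 20400 bp (chr16:3251801-3272200) and 18000 bp (chr11:3026801-3044800). All 3 lie near the stretch of gap that opens those chromosomes, and their surroundings were 9.85%, 31.4% and 10.2% Polycomb.

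The 3 longest mole promoter segments measured 8000 bp each, on scaffolds 1, 5 and 13. Those of the mouse measured 17200 bp (chr7:77496201-77513400), 11600 bp (chr11:85647001-85658600) and 10800 bp (chr2:77731801-77742600). For active enhancers the order was the reverse, with 56400 bp on mole scaffold 8 (from 36969201 to 37025600), then 30400 and 29200 bp, against 19800 bp (chr12:80937401-80957200) and 18600 bp for each of the next pair in the mouse. Around the longest mole active enhancer, 58.8% of non-gap bases within 100 kb were active enhancer chromatin and 0% Polycomb, and around the longest of the mouse 74.7% and 2.002%. The 1 Mb windows richest in promoter state held 6.50% in the mole (scaffold 2, from 17000201) and 9.02% in the mouse (chromosome 13, from 23000001). Polycomb chromatin filled 17.6% and 24.5% of those windows.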

How the data were processed

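Chromatin state maps were used as the authors deposited them, 1 state name per interval in bins of 200 bp. Per the labels, the 8 mole testis libraries (4 marks, 2 replicates) name 1 table, so replicates were combined before deposit. The depth is unknown. The mouse map was made with EpiCSeg per the file headers (version not given). STAR 2.6.1d and mm9 appear, without a role, in the submitters' processing notes. Nothing used here names the tool behind the mole maps. The 2 mouse tables belong to no labelled sample, and the gene models on another assembly, talOcc3, were not used.

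Shares, segments, borders and distances (edge to edge, 0 when adjoining) were computed per map with Python 3.11.15 and numpy 2.4.6. The measures were tested on simulated data. Shares exclude the gap state unless stated. A border joins segments that touch on 1 sequence. Windows of 1 Mb count from the first base of a sequence's map. Windows of 50% gap or more were left out when windows were named by promoter share. No such limit applied to the windows ranked by bivalent bases. Regions were named by a rule: the 3 longest segments of 4 states and the 3 windows with the highest promoter share. Mole scaffolds 15 (88.9 Mb) and 18 (18.4 Mb) were left out. Alternatives covered the sequences used, the denominator, segment length, gap handling and distance definition. The comparison, its measures and the scaffolds left out were chosen with earlier results of these data known.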

Additional observations from a re-analysis of the deposited data

Results flagged for a closer look

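For 5 of the 6 states the step from testis to the ovarian type of gonad went opposite ways in the species, in percentage points of non-gap bases. The active enhancer share changed by -1.93 from mole testis to the ovarian part of the ovotestis and by 2.81 from mouse testis to mouse ovary. The Polycomb share changed by -3.14 in the mole and 1.03 in the mouse, the poised enhancer share by 1.68 and -2.32, the bivalent promoter share by -0.0683 and 0.361, and the undefined share by 3.37 and -1.91. The promoter share moved the same way in both, by 0.0938 and 0.0355. With the testicular part of the ovotestis in place of the mole testis, 3 of the 5 states took the direction of the mouse: from the testicular to the ovarian part, Polycomb went from 5.12% to 5.29%, bivalent promoter from 0.684% to 0.700% and undefined from 64.7% to 64.4%. Active enhancer (5.48% to 3.96%) and poised enhancer (23.38% to 24.99%) kept the opposite direction. With 1 map per tissue the difference was not tested. The ovarian part at postnatal day 7 and the mouse ovary at embryonic day 13.5 also differ in stage, which cannot be told apart from species.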

How the results depend on the processing

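Mole over mouse ratios of the shares of promoter, bivalent promoter, active enhancer, poised enhancer and Polycomb (0.717, 1.83, 0.516, 1.18 and 0.297) kept their side of 1 in every alternative run. With every sequence they were 0.733, 2.43, 0.521, 1.19 and 0.298; with gap bases in the denominator 0.751, 1.92, 0.541, 1.24 and 0.311; with segments of at least 400 bp 0.653, 1.75, 0.479, 1.16 and 0.318. Alternatives added after seeing the data gave 0.739, 1.89, 0.487, 1.11 and 0.318 with bins of 1 kb, and 0.713, 1.37, 0.521, 1.19 and 0.288 without mole scaffolds 2 and 19. Leaving out each sequence in turn gave 0.695 to 0.740, 1.47 to 1.92, 0.507 to 0.529, 1.18 to 1.20 and 0.287 to 0.307, and for segments per Mb (0.172) 0.170 to 0.174. That ratio was 0.177 with every sequence, 0.249 with segments of at least 400 bp and 0.180 with gap in the denominator; added alternatives gave 0.387 with Polycomb and undefined joined, 0.300 with single bins absorbed into the segment before them and 0.151 with gaps of up to 2 kb read across. Ratios of mean length for the same 5 states, in the same order, were 0.827, 1.70, 1.48, 2.88 and 5.02 with segments of at least 400 bp; 1, 1.50, 2, 4.50 and 5.50 with medians; 0.916, 2.03, 1.72, 3.66 and 6.49 with every sequence; and, added, 1.25 (order turned for promoters), 1.96, 1.74, 3.74 and 7.59 with short gaps read across. Promoter borders with active enhancers stood at 78.7% in the mole and 55.8% in the mouse with single bins absorbed, 52.9% and 58.3% with gap borders kept, 89.3% and 62.3% with every sequence, and 79.6% and 61.3% with short gaps read across (added). The distance ratio (1.21) was 1.14 with bivalent promoters as targets too, 1.02 with promoters and 1.39 with enhancers of at least 400 bp, 1.22 between midpoints, 1.95 without adjoining enhancers, 1.16 with every sequence, 1.17 to 1.27 with each sequence left out in turn, and, added, 0.943 in units of promoter spacing, where the order turned. Mean lengths of active enhancers changed order at bins of 1 kb, with 2184 bp in the mole and 2227 bp in the mouse. Apart from the alternatives' own construction, the cause of these shifts was not tested. No paired analysis was possible because the replicates of a tissue were combined into 1 map, which also kept single replicates from being left out. Counts of reads were not used, so what depth limits is unknown.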
